A study of Rattus norvegicus with 2 samples.

Results

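BH3-only genes encode small death proteins that carry the BH3 helix of the BCL-2 family and none of its other shared domains. The 10 taken here are Bbc3 (PUMA), Pmaip1 (NOXA), Bcl2l11 (BIM), Bmf, Hrk (DP5), Bad, Bid, Bik, Bnip3 and Bnip3l (NIX). They were found on a rat expression array by matching the RefSeq accession of each probe to a rat gene symbol. All 10 were on the array, among 15443 genes named in this way. Of the 10, 9 had 1 probe and Hrk had 2.

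Total RNA came from neural precursor cells of SD rat embryo cortex at day 14 (E14), grown in N2 medium with bFGF at 10 ng/mL, which maintains their division. Cells were transiently transfected with 4 µg of plasmid, so cells without plasmid may remain in every group. The plasmid was rBcl-2-MSCV-IRES-EGFP, which carries rat Bcl-2 and a fluorescent reporter, or the empty vector MSCV-IRES-EGFP. On the withdrawal array, red (Cy5) was labelled as vector cells moved to NB medium without bFGF for 2 days, and green (Cy3) as vector cells kept in N2 with bFGF. On the second array, called the Bcl-2 array here, red was labelled as Bcl-2 cells with bFGF and green again as vector cells with bFGF. Each comparison had 1 array and no dye swap, both arrays lay on 1 slide, and no difference below has a replicate check or a test. Loss of bFGF and the change of medium came together in the withdrawn cells and cannot be told apart.

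BH3-only proteins bind prosurvival members such as BCL-2, BCL-XL and MCL-1 and thereby free the effectors BAX and BAK to open the outer mitochondrial membrane. Several bind BAX and BAK directly. Cells control them in different ways. Bbc3 and Pmaip1 are classical transcriptional targets of p53, Bcl2l11 and Bmf are induced by FOXO factors or by stress and loss of attachment, and Hrk is induced through JNK and c-Jun in neurons deprived of trophic support. Bad is held inactive by growth factor kinases and 14-3-3 proteins, and Bid is activated by caspase cleavage, so for these a transcript level shows little of their activity. Bnip3 and its relative Bnip3l respond to hypoxia and act above all as receptors for the removal of mitochondria. During brain development these genes help to set how many precursors and young neurons survive.

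Promoter windows of 300 bases (250 before the start site and 50 after it) are shown for the members in which a motif of a named regulator was found, because the members were set against each other by regulator. RefSeq promoters of build GRCr8 matched 7 of the 10 members. No entry was matched for Bbc3, Bik and Bnip3l. Motifs were searched on both strands: the FOXO motif GTAAACA, the hypoxia response core ACGTG, the AP-1 motif TGANTCA, the cAMP response motif TGACGTCA and the p53 half-site. Capitals mark GTAAACA (or its reverse complement) in Bcl2l11 (chr3:135819792-135820091, + strand) and Bad (chr1:213562864-213563163, + strand), and ACGTG in Bnip3 (chr1:203154913-203155212, - strand).
Bcl2l11: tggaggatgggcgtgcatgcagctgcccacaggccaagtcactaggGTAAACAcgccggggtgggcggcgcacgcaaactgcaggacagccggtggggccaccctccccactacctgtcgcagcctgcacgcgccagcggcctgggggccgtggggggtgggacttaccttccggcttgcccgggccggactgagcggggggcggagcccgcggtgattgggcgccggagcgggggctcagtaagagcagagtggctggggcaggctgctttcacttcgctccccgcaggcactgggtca
Bad: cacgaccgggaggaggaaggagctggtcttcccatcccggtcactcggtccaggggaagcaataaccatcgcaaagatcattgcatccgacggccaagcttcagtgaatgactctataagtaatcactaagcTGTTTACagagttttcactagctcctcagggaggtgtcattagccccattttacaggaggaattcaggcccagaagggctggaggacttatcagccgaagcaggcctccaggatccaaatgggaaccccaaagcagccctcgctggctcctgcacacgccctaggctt
Bnip3: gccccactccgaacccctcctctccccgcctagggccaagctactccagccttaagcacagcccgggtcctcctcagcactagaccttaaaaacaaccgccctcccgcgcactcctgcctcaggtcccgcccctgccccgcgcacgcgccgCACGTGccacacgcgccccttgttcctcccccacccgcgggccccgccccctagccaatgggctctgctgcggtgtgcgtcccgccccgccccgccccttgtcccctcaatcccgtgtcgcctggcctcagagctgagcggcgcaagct
GTAAACA was found in 2 of the 7 members and in 3.78% of all 33469 promoters in the table. ACGTG was found in 1 of the 7, Bnip3, on both strands as overlapping matches, and in 19.3% of all promoters. The AP-1 motif, the cAMP response motif and the p53 half-site were found in 0 of the 7, and in 7.33%, 1.83% and 7.98% of all promoters. These matches describe letters in a window and show no binding.

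Direction is not settled on these arrays. Both arrays were labelled with the same control RNA in green, yet their log2 ratios correlated at r = -0.68 over 42011 gene spots, or -0.14 with the deposited Feature Extraction ratio. Channels were compared over the 26861 spots that passed the background limit in all 4. The SD of the log2 difference between green of the Bcl-2 array and green of the withdrawal array was 0.40, but 0.14 between green of the Bcl-2 array and withdrawal red. It was 0.15 between red of the Bcl-2 array and withdrawal green. Values follow the labels, red over green, and the value with the opposite sign (turned) stands beside those of the members and the medians of the lists. For every other gene and count, turning an array changes the sign and swaps higher for lower.

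Ratios of precursor markers compare 2 channels, so they describe the groups and cannot check the precursor label itself. Of 8 neural precursor markers, 8 were measured on the withdrawal array and 7 on the Bcl-2 array. Their median log2 ratio was 0.21 on the withdrawal array, with 5 above 0 and 3 below, and -0.27 on the Bcl-2 array, with 2 above and 5 below (-0.21 and 0.27 turned). Fabp7, a radial glia gene and the furthest of them from 0, was at 1.26 and -0.91. Of 8 astrocyte markers 7 were measured, and Gfap was not well above background in any channel. Microglia and endothelium or pericyte markers had 3 of 5 measured on each array, with Itgam, Ptprc, Pecam1 and Rgs5 not well above background. Median net signals were 284.5 in red and 189 in green on the withdrawal array, and 266 and 201 on the Bcl-2 array.

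Bbc3 had the ratio furthest from 0 among the 10 members measured on the withdrawal array and the 8 measured on the Bcl-2 array. Its protein, PUMA, binds all the main prosurvival proteins and is a strong inducer of p53-dependent death. Its net signal on the withdrawal array was 2405 in red (vector without bFGF) and 454 in green (vector with bFGF). Normalized levels were 10.86 and 9.23 on the log2 scale, a log2 ratio of 1.62 or 3.08-fold higher in red. With the sign turned the ratio is -1.62. The deposited spot-noise error was 0.26. It belongs to the Feature Extraction ratio, 1.71 for Bbc3 here, and stands beside the normalized ratio throughout. For dim members these ratios differ, so a normalized ratio within that error is no measure of their noise. The error covers no scatter between cultures. For bright members it was nearly constant, 0.204 for both Bik and Bnip3l on the withdrawal array, so it says little of the scatter of a single spot.

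On the Bcl-2 array Bbc3 ran the other way. Its net signal was 1011 in red (Bcl-2 with bFGF) and 1253 in green (vector with bFGF), and normalized levels were 9.61 and 10.92. The log2 ratio was -1.31 with an error of 0.24, so that green was 2.48-fold above red; with the sign turned it is 1.31. The levels, unlike the net signals, are after dye normalization, and red read brighter than green on both arrays.

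Among all genes, Bbc3 ranked 70 from the highest of 10852 on the withdrawal array and 99 from the lowest of 10241 on the Bcl-2 array. Turned, it would rank 70 from the lowest and 99 from the highest. A larger ratio in either direction was seen for 0.673% and 1.15% of genes. In either direction, 1 of 10 members was at least 2-fold on the withdrawal array, against 2.89% of all genes, and 1 of 8 measured on the Bcl-2 array, against 2.56%. Bbc3 was that member, higher on the withdrawal array, where 2.42% of all genes were, and 0 members were at least 2-fold lower, against 0.470% of all genes. It was lower on the Bcl-2 array, where 2.00% of all genes were, and 0 were at least 2-fold higher, against 0.557%. Turned, Bbc3 would be the 1 member lower on the withdrawal array and the 1 higher on the Bcl-2 array. A single gene does not set the list apart.

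**Figure D1:**
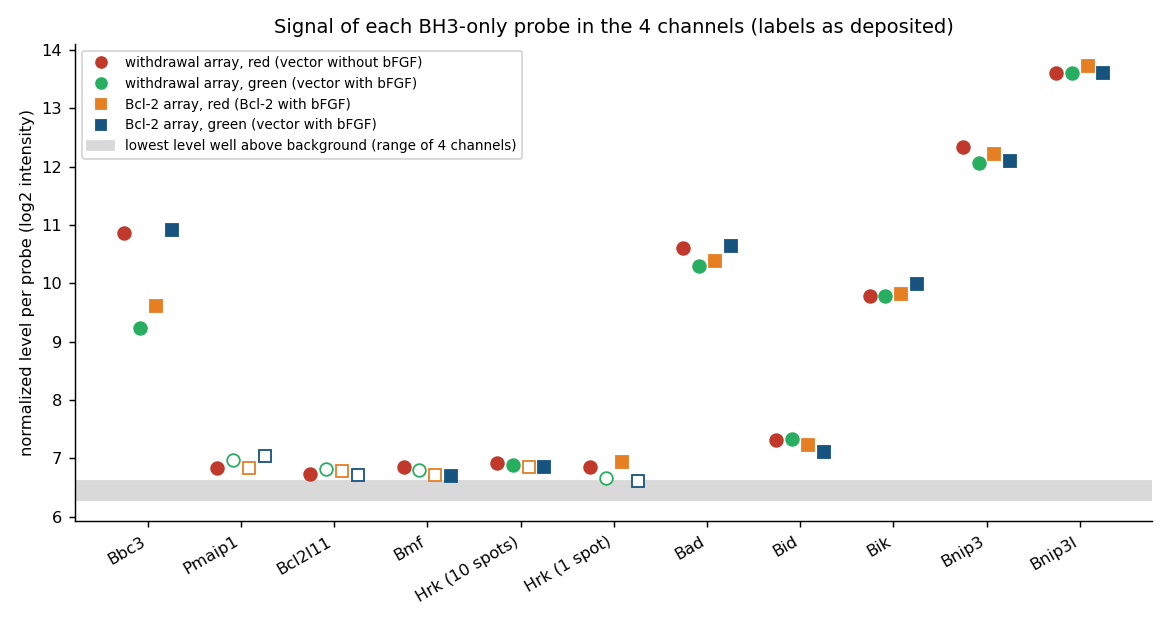
Normalized log2 level of each BH3-only probe in red and green of the withdrawal array (circles) and of the Bcl-2 array (squares). Filled symbols are well above background, open ones are not, and the grey band spans the lowest levels well above background. Levels compare channels of 1 probe and not probes with each other: Bbc3 lies at 10.86 and 10.92 in withdrawal red and Bcl-2 green, and at 9.23 and 9.61 in withdrawal green and Bcl-2 red.

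The 4 channels of the Bbc3 probe fell into pairs that cut across the labels. Green of the Bcl-2 array exceeded red of the withdrawal array by 0.06 (log2), less than the spot-noise error, and 63.8% of 17301 probes had a larger gap between these channels. The channels labelled as the same vector control, green of both arrays, differed by 1.68, and 0.509% of probes had a larger gap. Red of the Bcl-2 array lay 0.37 above green of the withdrawal array, a gap exceeded by 2.05% of probes. Setting red of the Bcl-2 array against red of the withdrawal array gave -1.25, exceeded by 1.18% of probes.

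In the authors' deposited table Bbc3 stands at a linear ratio of 3.442 in the column for the withdrawal array and 1.239 in the column for the Bcl-2 array. The first column followed the red over green ratio of the withdrawal array for 100% of 28392 probes within 0.05 on the log2 scale, after a constant. The second followed its own array for 7.06% of probes. For 100% it followed both arrays' ratios multiplied together, so the second value is not the ratio of 1 array. The sum of the log2 ratios of both arrays for Bbc3 was 0.31.

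Pmaip1, the other p53 target, encodes NOXA, which binds mainly MCL-1. Its net signal on the withdrawal array was 38.5 in red and 88.5 in green, and on the Bcl-2 array 49 and 99. It was well above background in withdrawal red alone. The ratio there was -0.14 with an error of 0.43, or 0.14 with the sign turned. A change of Pmaip1 was not detectable at this signal.

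**Figure D2:**
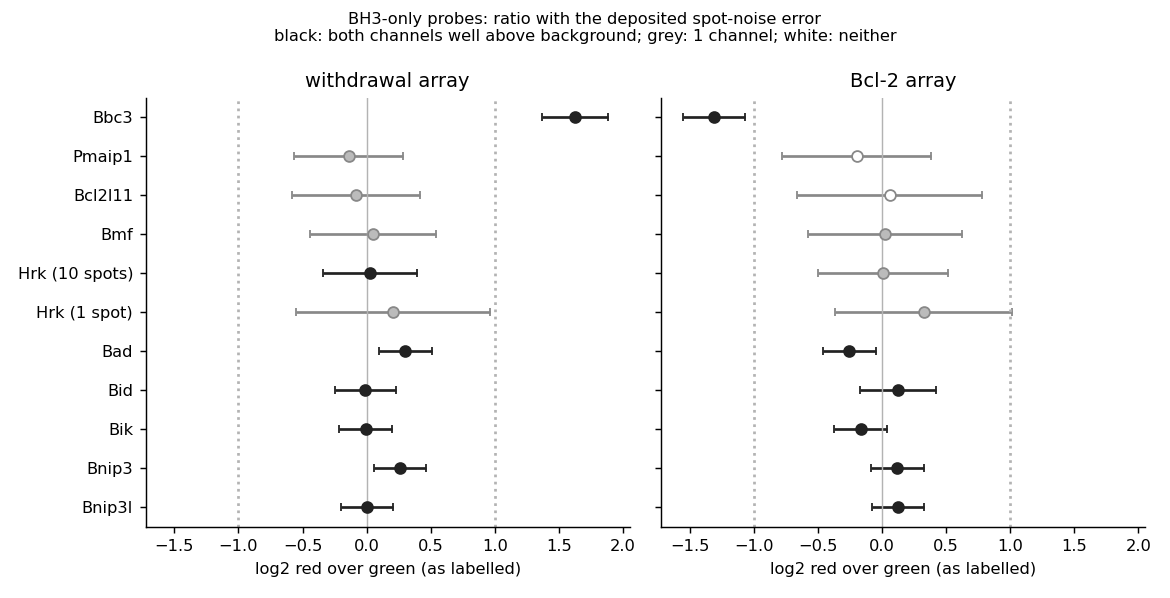
Log2 red over green of each BH3-only probe on the withdrawal array (left) and on the Bcl-2 array (right), with bars for the deposited spot-noise error and dotted lines at the 2-fold limit. The errors belong to the Feature Extraction ratio and are drawn around the normalized one. Bbc3 lies beyond the limit on both arrays, at 1.62 and -1.31, and the other probes lie between -0.25 and 0.33.

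The FOXO- and stress-driven members were dim. Bcl2l11, whose product BIM binds all prosurvival proteins, had a net signal of 26 in red and 80 in green on the withdrawal array, and 50 and 81 on the Bcl-2 array. It was well above background in withdrawal red alone, with a ratio of -0.08 and an error of 0.50 (0.08 with the sign turned). Its Feature Extraction ratio, to which that error belongs, was -0.58. Its FOXO motif, shown above, therefore stands beside a transcript whose change could not be measured here.

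Bmf, a sensor of lost attachment, had a net signal of 36 in red and 78.5 in green on the withdrawal array, and 44 and 80 on the Bcl-2 array. It passed the background limit in red and not in green on the withdrawal array, and in green and not in red on the Bcl-2 array. The ratios were 0.05 and 0.02 with errors of 0.49 and 0.60 (-0.05 and -0.02 turned). The Feature Extraction ratios, to which these errors belong, were -0.17 and -1.03, the latter beyond its error. With 1 channel below the background limit on each array, no fold is given.

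Hrk, which encodes a neuronal death protein that binds BCL-2 and BCL-XL, was printed as 1 probe in 10 spots and another in 1 spot. The repeated probe gives the one look at technical scatter among the members. Over 8 usable spots on the withdrawal array its log2 ratio ran from -0.20 to 0.33 with a median of 0.00 and an SD of 0.19, and 4 spots lay above 0 and 4 below. Over 9 usable spots on the Bcl-2 array it ran from -0.15 to 0.15 with a median of -0.01 and an SD of 0.10, with 4 spots above 0 and 5 below. The spots spread around 0 on both arrays. Probes kept with at least 9 usable spots had a median SD of 0.039 on the withdrawal array and 0.038 on the Bcl-2 array, so the dim Hrk spots scattered more than most.

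On both arrays the single-spot Hrk probe passed the background limit in red and failed it in green. Its net signal was 33 in red and 71 in green on the withdrawal array, and 72.5 and 74.5 on the Bcl-2 array, with ratios of 0.20 and 0.33, within their errors. With the deposited Feature Extraction ratio it stood at 2.26 with an error of 0.76 and 2.56 with an error of 0.69 on the log2 scale, while the repeated probe stood at -0.12 and -0.32. The 2 probes thus disagreed in sign by that ratio. The value for the gene, the median of both probes, was 0.11 and 0.17 (-0.11 and -0.17 turned).

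The mean log2 ratio of the p53-driven pair was 0.74 on the withdrawal array and that of the FOXO- and stress-driven trio 0.03, a difference of 0.71 (-0.71 with the sign turned). The pair itself was split, since Bbc3 was at 1.62 and Pmaip1 at -0.14. On the Bcl-2 array the pair was measured through Bbc3 alone, at -1.31, and the trio through Bmf and Hrk, at 0.10, a difference of -1.40 (1.40 turned). Where both channels had to be well above background, the withdrawal comparison came down to Bbc3 against Hrk, at 1.60, and the Bcl-2 array had no member of the trio. The difference was therefore that of 1 gene from dim ones, not of p53-driven from FOXO-driven members as groups.

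Bad, the sensor of growth factor kinases, was bright and had small ratios of opposite sign. Its net signal was 2009 in red and 961 in green on the withdrawal array, and 1860 and 1031 on the Bcl-2 array. Normalized levels were 10.60 and 10.30 on the withdrawal array, and 10.39 and 10.65 on the Bcl-2 array. The ratios were 0.30 and -0.25 with errors of 0.21 and 0.20 (-0.30 and 0.25 turned), and 34.1% and 36.4% of all genes had a larger ratio. Differences of this size were common on these arrays.

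Bid, which links death receptors to mitochondria once cleaved, had a net signal of 102 in red and 113 in green on the withdrawal array, and 103.5 and 101 on the Bcl-2 array. Its ratios were -0.01 and 0.12 with errors of 0.24 and 0.30 (0.01 and -0.12 turned). Bik, a BH3-only protein of the endoplasmic reticulum, had 1094 and 662 on the withdrawal array, and 1204.5 and 666.5 on the Bcl-2 array, with ratios of -0.01 and -0.17 and errors of 0.20 on both (0.01 and 0.17 turned). Neither gene had a normalized ratio beyond its error on either array. The Feature Extraction ratio of Bid on the Bcl-2 array did exceed it, at 0.54.

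Bnip3 and Bnip3l, the mitophagy receptors, were far above background. Bnip3 had a net signal of 6920.5 in red and 3311 in green on the withdrawal array, and 7152.5 and 2753.5 on the Bcl-2 array. Its ratios were 0.26 and 0.12 with errors of 0.20 on both (-0.26 and -0.12 turned). Bnip3l had 17243 and 9527.5 on the withdrawal array, and 21403.5 and 7538 on the Bcl-2 array, with ratios of 0.00 and 0.13 and errors of 0.20 on both. For Bnip3l, the dye normalization removed nearly all of the raw gap between red and green, and all 4 levels lay between 13.61 and 13.73.

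The normalized ratio exceeded the spot-noise error for 3 of 10 members on the withdrawal array (Bbc3, Bad and Bnip3) and for 2 of 8 measured on the Bcl-2 array (Bbc3 and Bad). The share of all genes that did so was not computed. On the withdrawal array 34.1% of all genes had a larger ratio than Bad and 40.1% a larger one than Bnip3. On the Bcl-2 array 36.4% had a larger one than Bad. Without the share of all genes beyond the error, these counts cannot be read as a result about the members. Without Bbc3, the members ran from -0.14 to 0.30 on the withdrawal array and from -0.25 to 0.17 on the Bcl-2 array. The median of the members was 0.02 on the withdrawal array, beside 0.03 over all genes, and 0.07 on the Bcl-2 array, beside -0.01. The quartiles over all genes were -0.16 and 0.25 on the withdrawal array, and -0.22 and 0.16 on the Bcl-2 array.

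**Figure D3:**
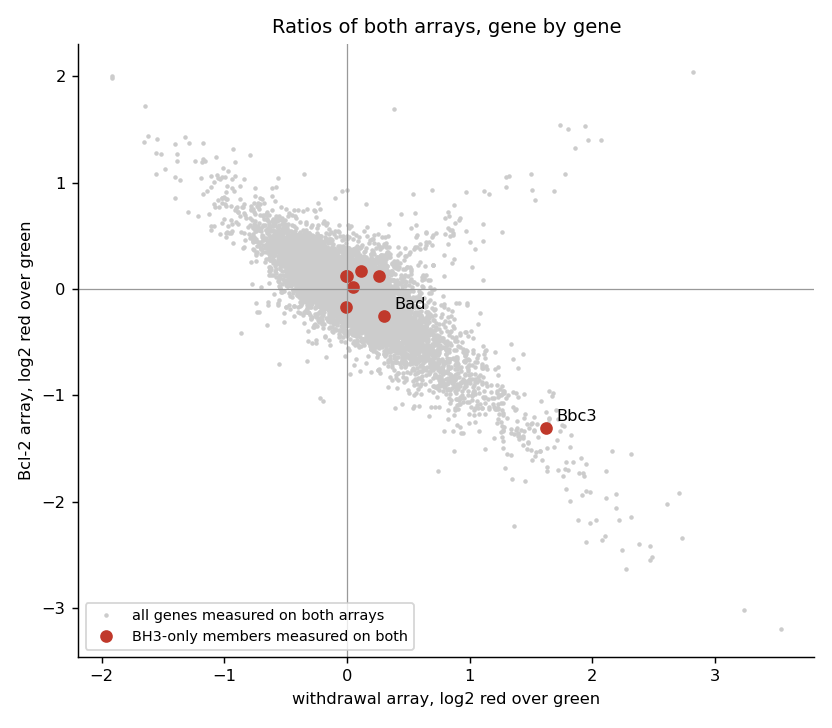
Log2 red over green on the withdrawal array (x axis) against the Bcl-2 array (y axis) for the genes measured on both (grey) and the 8 BH3-only members among them (red). Bbc3 lies at 1.62 and -1.31, along the run of genes from upper left to lower right; the arrays carry the same labelled control.

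The partners and regulators of the BH3-only genes were described by 8 lists. Prosurvival proteins, the binding partners, had 5 of 6 genes measured on the withdrawal array and 4 on the Bcl-2 array, with 0 at least 2-fold and medians of 0.25 and 0.05 (-0.25 and -0.05 turned). Bcl2 itself was at 0.39 and -0.02, with errors of 0.21 and 0.20. It is not known whether that probe reads the transfected plasmid, so the label could not be checked with it. Bcl2l2, which encodes BCL-W, was at -0.12 and 0.46.

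The effectors and apoptosome genes had 0 of 11 at least 2-fold on either array. Their medians were 0.26 and -0.22 (-0.26 and 0.22 turned), with 9 of 11 above 0 on the withdrawal array and 9 of 11 below 0 on the Bcl-2 array. Bax, the pore-forming effector and also a p53 target, was at 0.06 and -0.71. Bok, a relative of BAX, was at 0.26 and -0.61.

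Among other genes of the p53 pathway, 20 were measured on the withdrawal array and 18 on the Bcl-2 array. Of these, 2 were at least 2-fold higher and 0 lower on the withdrawal array, and 0 higher and 2 lower on the Bcl-2 array, against the shares of all genes given above. Both times they were Tp53inp1, an autophagy and stress gene, at 1.65 and -1.21, and the cyclin gene Ccng1 at 1.63 and -1.49. Their ratios lay close to those of Bbc3. Named after their values were seen, the cell cycle inhibitor gene Cdkn1a was at 0.85 and -0.81, and the ubiquitin ligase gene Mdm2 at 0.44 and -0.31. The list medians were 0.31 and -0.38 (-0.31 and 0.38 turned).

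FOXO factors and their other targets had 14 of 17 genes on the array measured, with medians of 0.23 and 0.04 (-0.23 and -0.04 turned). On the withdrawal array 2 were at least 2-fold higher and 0 lower: Klf15, a transcription factor gene of metabolic control, at 2.32 and Txnip, an inhibitor of glucose uptake, at 1.13. On the Bcl-2 array 2 were at least 2-fold lower and 0 higher: Klf15 at -1.55 and the sestrin gene Sesn3 at -1.22. Txnip was at -0.73 there, and Sesn3 at 0.82 on the withdrawal array. Klf15, Txnip and Sesn3 were well above background in all 4 channels, while Bcl2l11 was not. Among all genes, 2.42% were at least 2-fold higher on the withdrawal array and 2.00% at least 2-fold lower on the Bcl-2 array.

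JNK, ATF4 and CHOP stress genes had 0 of 16 measured genes at least 2-fold on either array, with medians of 0.16 and -0.10 (-0.16 and 0.10 turned). Sesn2, a sestrin induced by ATF4 and p53 and counted in both lists, was at 0.89 and -0.70. Dynll2, the dynein light chain that tethers BMF, was at 0.35 and -0.66.

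The hypoxia response list, set beside Bnip3 and Bnip3l, had 18 genes measured on each array, with medians of -0.14 and 0.14 (0.14 and -0.14 turned). On the withdrawal array 1 was at least 2-fold higher, the mTOR inhibitor gene Ddit4 at 1.44, and 1 lower, Ankrd37 at -1.48. On the Bcl-2 array Ankrd37 at 1.13 was higher, as was Ldha, a gene of lactate formation, at 1.08, while Ddit4 at -1.21 was lower. Bnip3 was at 0.26 and 0.12 beside them. The shares of all genes at least 2-fold are those given above.

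Mitophagy and autophagy partners had 16 genes measured on the withdrawal array and 15 on the Bcl-2 array, with medians of 0.08 and -0.24 (-0.08 and 0.24 turned). Nlrx1, a mitochondrial NOD-like receptor gene, was at 1.06 and -1.05, at least 2-fold on both. Pink1, the kinase gene that marks damaged mitochondria, was at 1.04, at least 2-fold, and -0.96. Nlrx1 and Pink1 too stand against the shares of all genes given above. Regulators of BAD and BID had 0 of 19 measured genes at least 2-fold on either array, with medians of -0.14 and 0.05 (0.14 and -0.05 turned). The kinase genes Rps6ka1, at -0.89 and 0.61, and Pim3, at -0.86 and 0.77, lay furthest from 0. Both kinases can phosphorylate BAD. Casp8, whose product cleaves BID, was not well above background on either array.

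**Figure D4:**
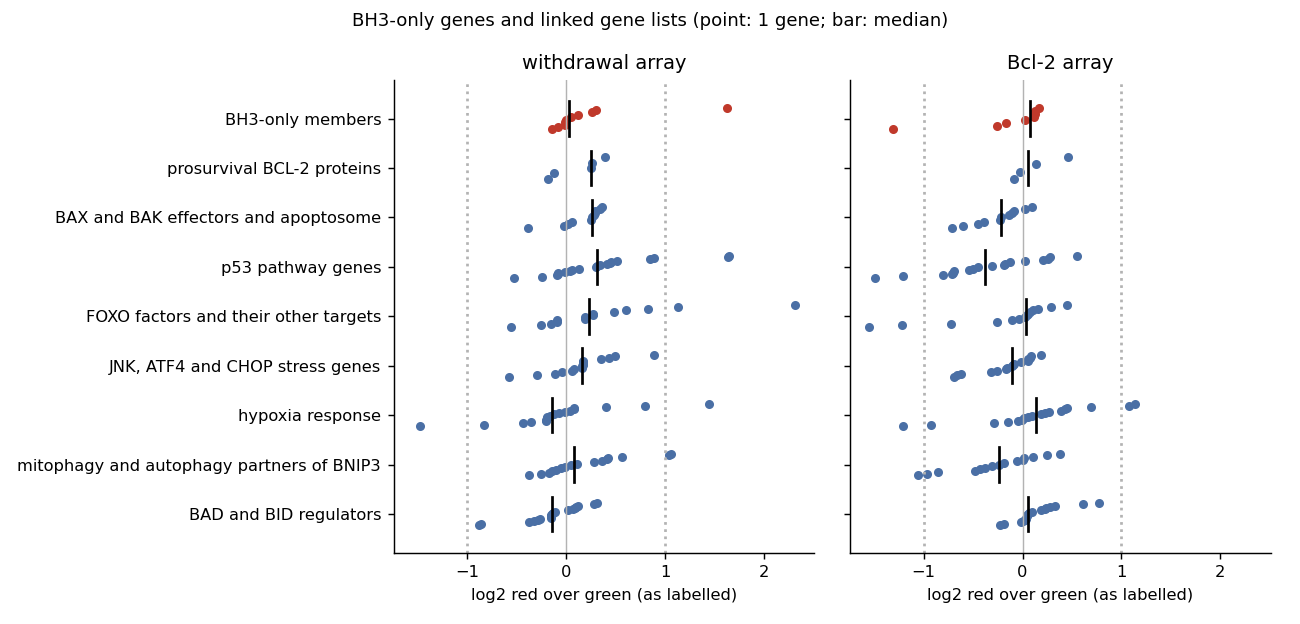
Log2 red over green of each measured gene in the BH3-only list (red) and in 8 linked lists (blue), on the withdrawal array (left) and the Bcl-2 array (right), with a bar at each median and dotted lines at the 2-fold limit. List medians lie between -0.14 and 0.31 on the withdrawal array and between -0.38 and 0.14 on the Bcl-2 array.

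Markers of several cell types, precursors among them, mostly shared the sign of Bbc3. Opposite signs on the 2 arrays were common, with r = -0.76 over the 10162 genes measured on both. At least 2-fold higher on the withdrawal array were 3 of 7 astrocyte and 2 of 6 neuron markers. So were 1 of 6 fibroblast and meninges and 1 of 8 precursor markers, against 2.42% of all genes. In that order, 3 of 7, 1 of 6, 4 of 5 and 0 of 7 were at least 2-fold lower on the Bcl-2 array. Among all genes 2.00% were. The summed level of the 7 measured astrocyte markers was 15.10 in red and 13.80 in green on the withdrawal array, and 13.83 in red and 15.10 in green on the Bcl-2 array (log2). All 7 lay above 0 on the withdrawal array and all 7 below 0 on the Bcl-2 array, from 0.12 to 3.54 and from -3.20 to -0.38, led by the lipid carrier gene Apoe. Fibroblast and meninges markers summed to 12.97 in red and 12.22 in green on the withdrawal array, where 6 of 6 lay above 0, and to 11.40 in red and 12.88 in green on the Bcl-2 array, where 5 of 5 lay below 0. Neuron markers lay above 0 for 6 of 6 on the withdrawal array and below 0 for 5 of 6 on the Bcl-2 array. Oligodendrocyte lineage markers had 6 of 7 above 0 on the withdrawal array, and 3 above and 4 below on the Bcl-2 array. Microglia markers had 1 above and 2 below on the withdrawal array and 3 of 3 above on the Bcl-2 array, and endothelium and pericyte markers 2 above and 1 below, then 1 above and 2 below; in these 3 lists 0 were at least 2-fold on either array. Summed levels of the oligodendrocyte lineage were 16.15 in red and 15.77 in green on the withdrawal array and 16.05 and 16.04 on the Bcl-2 array. Those of microglia were 10.06 in red and 9.95 in green on the withdrawal array and 9.99 and 9.95 on the Bcl-2 array. Those of endothelium and pericytes were 8.998 in red and 8.78 in green on the withdrawal array and 8.75 and 8.82 on the Bcl-2 array. With the sign of an array turned, above and below change places. The part of these markers in the Bbc3 ratio was not tested. In such bulk RNA, a changed number of cells of a type and a changed amount of RNA per cell cannot be told apart.

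Processing moved Hrk on both arrays, and Bmf on the Bcl-2 array, the most. Several other members also moved more than Bbc3 did. Over 8 settings Bbc3 ran from 1.62 to 1.88 on the withdrawal array and from -1.47 to -1.31 on the Bcl-2 array. These are fewer than 8 separate checks. Bbc3 has 1 bright probe, so the filter settings and the mean over probes repeated its main value by construction. The authors' table repeated its Feature Extraction ratio up to a small shift. Bad ran from 0.28 to 0.56 and from -0.33 to -0.24. Bid ran from -0.21 to -0.01 and, on the Bcl-2 array, from 0.05 to 0.54. On the withdrawal array Bik ran from -0.10 to 0.25, Bnip3 from 0.24 to 0.53 and Bnip3l from 0.00 to 0.32. Bmf ran from -1.10 to 0.04 on the Bcl-2 array and passed the 2-fold limit with the Feature Extraction ratio, at -1.03. Hrk ran from -0.20 to 1.11 on the withdrawal array and from 0.13 to 1.12 on the Bcl-2 array. Bcl2l11 reached -0.58 with the Feature Extraction ratio on the withdrawal array. An offset of 50 added to both channels pulls dim ratios toward 0, so small ratios of Pmaip1, Bcl2l11, Bmf and Hrk do not show that their transcripts were unchanged.

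**Figure D5:**
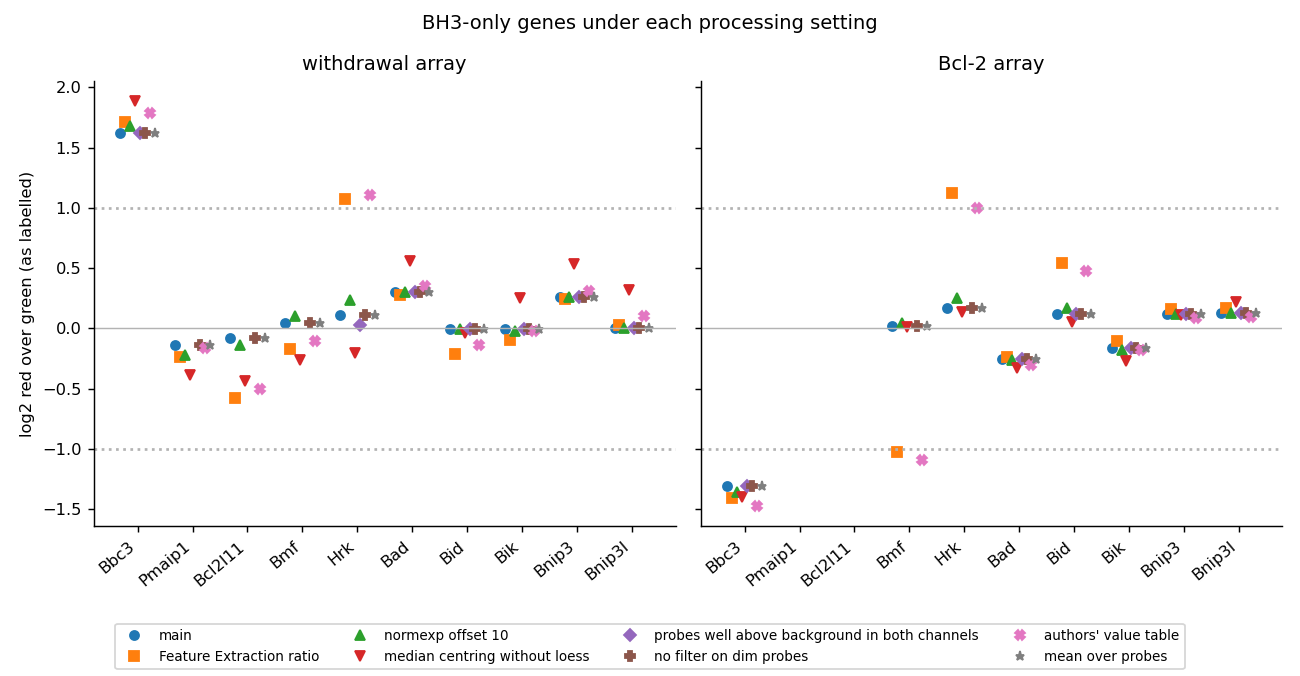
Log2 red over green of each BH3-only gene on the withdrawal array (left) and the Bcl-2 array (right) under the main setting and 7 alternatives, with dotted lines at the 2-fold limit. Bbc3 stays between 1.62 and 1.88 on the withdrawal array and between -1.47 and -1.31 on the Bcl-2 array, while Hrk reaches 1.07 and 1.12 with the Feature Extraction ratio and Bmf -1.03 on the Bcl-2 array.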

How the data were processed

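Total RNA of rat neural precursor cells was read on 2 Agilent arrays of 2 colours. Per the file headers, the deposited files hold the median spot and background intensity of each channel, flags of 0 or 1, a log10 ratio (red over green), its error from spot noise, and a p-value that was not used. Feature Extraction 11.5.1.1 and build rn4 stand in the file headers, and version 8.5.1.1 in the submitters' processing notes. The authors' deposited table holds a linear ratio with medians of 0.932 and 0.944 whose scale, centring and direction are not given in the sources used here.

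Background was corrected by normexp (offset 50), and loess was run within each array with control spots at weight 0 (limma 3.58.1, R 4.3.3), and the steps were tested on simulated data. Channel levels were scaled by Aquantile. Of 42877 gene spots, 534 outliers were left out on the withdrawal array and 576 on the Bcl-2 array, and 0 were saturated. Probes flagged well above background in red, green or both, in a share of at least 0.5 of their spots, were kept, and a gene is the median of its kept probes (Python 3.11.15, pandas 2.3.3). Names came from a RefSeq table of GRCr8, used for names alone, which named 60.4% of 30367 probes. The 2-fold limit is an absolute log2 ratio of 1, with all kept probes of the gene on 1 side of 0.

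Named genes were the 10 members, Bcl2, and from each list up to 4 genes at least 2-fold on either array by largest absolute ratio, or otherwise the 2 with the largest. Members and lists were chosen with earlier results of these data known. One member of a linked list is not reported here. The number of arrays, 1 per comparison, limits the precision.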

Additional observations from a re-analysis of the deposited data

Results flagged for a closer look

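Bbc3 stood at 1.62 (log2 red over green) on the withdrawal array and at -1.31 on the Bcl-2 array, moving in opposite directions in the only sample of each comparison. The difference was not tested because no array was repeated, and turning the sign of 1 array alone would give both the same direction.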

How the results depend on the processing

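The Feature Extraction ratio and the authors' value table each replace background correction and normalization together, the table also with fewer genes (10737 and 10128, against 10852 and 10241), and the other alternatives changed 1 choice. For members with 1 spot the authors' table repeated the Feature Extraction ratio up to a nearly constant shift. On the withdrawal array Bbc3 was at 1.78 in the table and 1.71 by that ratio, and Pmaip1 at -0.16 and -0.24. Like results of these settings below are therefore 1 finding and not 2 that agree. Values of single members kept to within their spot-noise error in 108 of 121 cases. Summaries did not move in 36 of 41 cases, and 0 called values reversed. Many of these cases could not move. No member had more than 2 probes, so the mean over probes equalled the median by construction, for members and summaries alike. A filter could drop a member with 1 probe but not change its value. Both shares of unmoved cases therefore overstate how stable the values were. For a count the limit was 1.5 times. For the other summaries it was the median spot-noise error of the members, 0.25 on the withdrawal array and 0.22 on the Bcl-2 array. That median is not an error of the summaries themselves. The count of members at least 2-fold on the Bcl-2 array was 2 in place of 1 with the Feature Extraction ratio and with the authors' value table, Bmf being added; the cause was not tested. Over all genes the share at least 2-fold then was 10.2% and 10.3%, against 2.56%. On the withdrawal array that share was 10.4% with the Feature Extraction ratio, 10.7% with the authors' table, 4.94% with an offset of 10 and 4.67% with median centring without loess, against 2.89%, while the count of members stayed at 1. The p53-driven pair minus the FOXO- and stress-driven trio on the withdrawal array was 1.05 with median centring without loess, where the cause was not tested and the median of all genes was 0.17, and 1.60 where both channels had to be well above background, where it rests on Bbc3 and Hrk alone. On the Bcl-2 array it was -0.84 with no filter on dim probes, where Pmaip1 and Bcl2l11 enter below background, and it could not be computed where both channels had to be well above background, since no member of the trio was left. For the Bcl-2 array the authors' table was used as the quotient of its columns. No paired analysis was possible because each group has 1 sample. Leaving out a replicate was not possible for the same reason. Signal over background limits Pmaip1, Bcl2l11, Bmf and Hrk.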
